A study of Mus musculus with 12 samples.

Results

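The chromosome 15 genes of the mouse were followed through the tumours of a cell line and of its derivative resistant to anti-PD-1. Members were all genes that the mouse gene table used to name the probe sets places on chromosome 15, each represented by 1 probe set, the one with the highest mean over the 12 arrays. The table lists 1775 genes on this chromosome, the array named 724 of them, and 619 were kept because at least 3 arrays lay above 3.32, the 25th percentile of all values. In all, 15493 genes were kept, and 105 chromosome 15 genes were left out as too dim. Near that limit, Glycam1 was just inside with a third-highest value of 3.35, and Cyp2d9 just outside with 3.32. The chromosome was selected on the differences between resistant and parental tumours under IgG and anti-PD-1, which as a set lay lower, so the differences between the lines are given here as description and support nothing.

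RNA from whole subcutaneous tumours was hybridised to 12 Affymetrix Mouse Genome 430 2.0 arrays, with 4 groups of 3 arrays. Cells of 344SQ, a line from a mouse lung adenocarcinoma, were injected as parental (Sen) or anti-PD-1 resistant (Res) into the flank of female 129sv/ev mice. Each line was treated with control IgG or with anti-PD-1, which blocks the T-cell checkpoint receptor PD-1. Doses of 10 mg/kg were given on days 4 and 7, and tumours were taken on day 11. The groups are thus parental tumours under IgG, parental tumours under anti-PD-1, resistant tumours under IgG and resistant tumours under anti-PD-1. All 4 groups share strain, sex, injection site and an immunocompetent host, and every mouse received an antibody. The labels give 5 mice per group but not which mice stand behind an array, nor the ages or how the resistant line was derived, so that a p-value here covers the spread between arrays, which may be technical. Values are log2 levels on the authors' scale, and a difference of 1 is a 2-fold change.

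Mouse chromosome 15 carries several well known neighbourhoods. Beyond genes for cytokine and hormone receptors near its beginning lies the region around Myc, the transcription factor gene often altered in tumours, then the Ly6 cluster of small membrane-anchored surface proteins, a gene-dense stretch with genes of leukocytes and metabolism, and, towards the end, the type II keratin and Hoxc clusters. Neighbouring genes share the copy number of their chromosome and often their chromatin surroundings, which is why expression is commonly read in gene order. Copy number was not measured on these arrays. In RNA from whole tumours, fewer cells of a type and less RNA per cell cannot be told apart.

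Promoters are shown for 5 genes on which the results turn, from 250 bases before to 50 after the start of the gene. Apol7a and Rictor differed between the lines under both antibodies, Nr4a1 differed between the lines and rose under anti-PD-1 in parental tumours, and Sub1 and Cmbl fell there. The sequences are from RefSeq (build GRCm38.p6), given 5′ to 3′ on the strand of the gene, and the table held 433 windows for 340 of the 619 members. Capitals mark matches to TGACG, the half-site of the cAMP response element, or to the GC box GGGCGG, on either strand (CGTCA and CCGCCC on the other). The gamma activated site TTCnnnGAA was also searched and had no match in these 5 windows.
Apol7a, chr15:77399061-77399360, - strand: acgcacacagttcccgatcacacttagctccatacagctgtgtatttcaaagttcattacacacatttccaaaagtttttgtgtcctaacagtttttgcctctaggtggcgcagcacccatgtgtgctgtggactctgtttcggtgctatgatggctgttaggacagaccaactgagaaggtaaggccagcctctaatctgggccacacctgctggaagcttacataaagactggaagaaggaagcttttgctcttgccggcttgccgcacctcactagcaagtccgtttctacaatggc
Rictor, chr15:6708131-6708430, + strand: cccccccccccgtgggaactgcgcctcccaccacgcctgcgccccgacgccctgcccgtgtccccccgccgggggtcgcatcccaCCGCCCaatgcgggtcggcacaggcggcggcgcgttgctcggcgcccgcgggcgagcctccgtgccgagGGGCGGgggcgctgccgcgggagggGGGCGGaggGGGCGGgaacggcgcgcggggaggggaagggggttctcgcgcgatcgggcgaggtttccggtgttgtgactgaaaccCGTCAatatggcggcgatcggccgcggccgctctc
Nr4a1, chr15:101266596-101266895, + strand: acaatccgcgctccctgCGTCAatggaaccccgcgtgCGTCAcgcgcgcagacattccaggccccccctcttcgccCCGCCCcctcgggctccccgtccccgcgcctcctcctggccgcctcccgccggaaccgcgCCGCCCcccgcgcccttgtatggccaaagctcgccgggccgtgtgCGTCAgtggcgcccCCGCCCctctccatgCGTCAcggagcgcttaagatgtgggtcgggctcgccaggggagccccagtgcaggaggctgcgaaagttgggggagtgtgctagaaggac
Sub1, chr15:11995958-11996257, - strand: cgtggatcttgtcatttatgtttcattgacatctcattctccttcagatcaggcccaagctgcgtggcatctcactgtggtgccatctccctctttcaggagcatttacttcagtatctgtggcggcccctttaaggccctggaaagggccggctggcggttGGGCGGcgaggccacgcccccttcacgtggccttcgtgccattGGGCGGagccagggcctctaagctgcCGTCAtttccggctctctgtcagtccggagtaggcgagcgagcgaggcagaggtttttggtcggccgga
Cmbl, chr15:31568583-31568882, + strand: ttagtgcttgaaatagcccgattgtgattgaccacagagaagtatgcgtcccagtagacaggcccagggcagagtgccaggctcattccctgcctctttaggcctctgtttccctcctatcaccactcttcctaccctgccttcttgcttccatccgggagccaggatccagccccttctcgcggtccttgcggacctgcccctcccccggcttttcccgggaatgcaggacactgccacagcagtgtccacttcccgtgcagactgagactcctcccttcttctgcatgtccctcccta

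The Nr4a1 window held 4 half-sites of the cAMP response element and 3 GC boxes. Rictor had 1 half-site and 4 GC boxes, and Sub1 had 1 and 2. No match overlapped another, and the Apol7a and Cmbl windows held neither motif, which says only that these letters are not in these 300 bases. Of 32851 windows of this length in the table, 20.8% held TGACG, 35.7% held GGGCGG and 8.3% held TTCnnnGAA. Among the 433 windows of members the shares were 30.5%, 59.1% and 8.31%, and the median GC content was 61.0% against 52.7% over all windows. Which members have a window here depends on the table, and a match is a description of letters, not a site shown to be used.

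Before the results, the arrays themselves were compared. The first principal component held 48.5% of the variance and separated the lines, while parental IgG replicate 1 and parental anti-PD-1 replicate 3 stood apart on the second (21.6%), so values that rest on them are given with and without them. Muscle markers ranged widely, with list means from 7.19 to 11.7 in parental tumours under IgG and from 6.61 to 10.2 in resistant tumours under anti-PD-1. T-cell markers (4 of 5 kept, all but Lck) had list means of 4.66 to 5.55 and 4.90 to 5.81 in parental tumours under IgG and anti-PD-1, against 4.74 to 4.94 and 4.56 to 4.83 in resistant tumours. Endothelial, adipocyte and keratinocyte lists were higher in resistant tumours under IgG, without overlap, and overlapped under anti-PD-1. Their means under IgG were 5.275 to 5.815, 3.44 to 4.00 and 5.45 to 6.06 in parental tumours. In resistant tumours they were 6.26 to 7.00, 4.75 to 7.81 and 6.24 to 6.59. The 4 epithelial markers stood between 8.71 and 10.3 in every group, while Nkx2-1, the defining factor of the lung lineage, lay below the median of all values, as did the B-cell markers Cd79a and Ms4a1. The 3′ minus 5′ difference of the Gapdh control probe sets, a sign of RNA integrity and labelling, was 0.14 to 0.38 in parental and -0.03 to 0.09 in resistant tumours, with no overlap, and that of actin was 0.58 to 0.85 against 0.33 to 0.55. None of the markers lies on chromosome 15, and the part of these features in the differences below was not tested.

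Under IgG, the median difference between resistant and parental tumours over the 619 genes was -0.057, where the median over all 15493 genes was 0.067. Under anti-PD-1 the medians were -0.033 and 0.073. Chromosome 15 genes therefore lay on average slightly below the rest, with members on both sides of 0. Under IgG 350 of 619 (56.5%) were below 0, against 38.8% of all genes, and under anti-PD-1 331 (53.5%), against 40.4%. These shares include dim members, which are given apart by level further below. The middle part of the members ran from -0.32 to 0.13 (quartiles) under IgG and from -0.30 to 0.16 under anti-PD-1. The extremes were -2.55 and 1.73 under IgG and -2.90 and 2.18 under anti-PD-1.

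As a measure of size and not as a test of the chromosome, the members whose limma fit gave an adjusted p under 0.05 were counted. Under IgG 113 were lower (18.3%, background 7.31%) and 24 higher (3.88%, background 8.93%). Under anti-PD-1, 135 were lower (21.8%, background 11.9%) and 56 higher (9.05%, background 21.6%). These counts come from the comparison by which the chromosome was chosen, and nothing is read from them. On 99 genes (16.0%, background 6.65%) all 6 resistant arrays lay below all 6 parental arrays, and on 23 (3.72%, background 11.2%) above them. Of the members, 246 (39.7%, background 25.7%) were below 0 under both antibodies and 177 (28.6%, background 45.9%) above 0 under both. Both comparisons of the lines share no array, and over the members they correlated at r = 0.56, over all genes at 0.58, across genes that are not independent of each other.

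The difference varied with the level of the gene, as read from its probe set. The 159 members with a mean level up to 5 had a median of 0.12 under IgG, and 41 of them were below 0. Between 5 and 7 the median over 211 members was -0.04, between 7 and 9 it was -0.28 over 158 members, and above 9 it was -0.20 over 91. Among the 249 members over 7, a limit chosen after the values were seen, 194 (77.9%) were below 0 under IgG with a median of -0.23, and 154 (61.8%) under anti-PD-1 with a median of -0.11. Under IgG that median was -0.24 to -0.21 when 1 array was left out. Under anti-PD-1 it ran from -0.19 to -0.068, and it was -0.19 without both arrays that stand apart. For the 6571 genes over 7 on all chromosomes, those medians were 0.013 and 0.10, and 47.7% and 39.8% were below 0. All genes up to 5 had a median of 0.12 under IgG, the same as the dim members to 2 decimals. Between 5 and 7, all genes had a median of 0.06 with 41.3% below 0, against -0.04 and 54.5% for the members. Members thus lay below all genes of the same level from 5 upwards under IgG, by more above 7 than between 5 and 7.

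An array's position can be read from the deviation of each gene from its mean over the 12 arrays. The median deviation of the members over 7, minus that of all genes over 7, was 0.15, 0.11 and 0.11 on the parental IgG arrays and 0.13, 0.12 and 0.11 on the parental anti-PD-1 arrays. On the resistant arrays it was -0.11, -0.10 and -0.12 under IgG and -0.12, -0.11 and -0.11 under anti-PD-1. No resistant array reached a parental one. Over all 619 members the same score ran from 0.0325 to 0.0625 in parental and from -0.0725 to -0.0533 in resistant tumours. Parental IgG replicate 1 and parental anti-PD-1 replicate 3, the arrays that stand apart, had the highest and nearly the lowest parental score among genes over 7 and lay with the parental group.

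**Figure D1:**
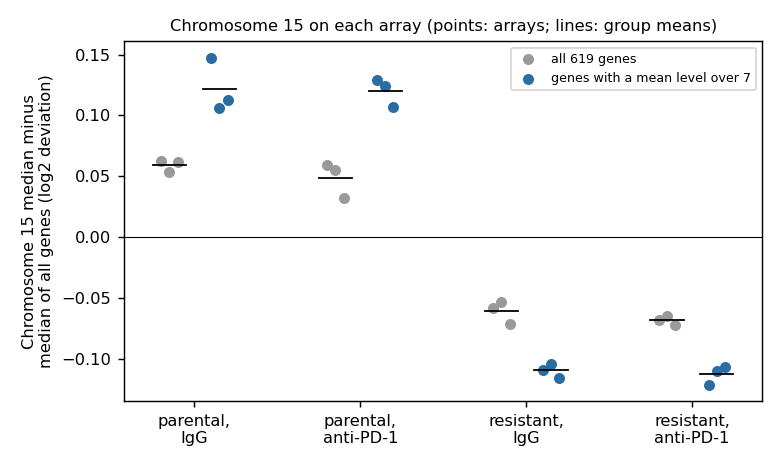
Chromosome 15 on each array: the median log2 deviation of chromosome 15 genes from their 12-array means, minus the same median over all genes (y axis, log2), for the 4 groups (x axis), for all 619 genes (grey) and for the 249 with a mean level over 7 (blue). Points are arrays and lines are group means; all 6 parental arrays lie above 0 and all 6 resistant arrays below it.

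Set beside the other 19 chromosomes, chromosome 15 had the second lowest median under IgG and the lowest under anti-PD-1. The medians of the others ran from -0.06 on chromosome 6 to 0.25 on chromosome 8 under IgG, and from -0.028 on chromosome 6 to 0.27 on chromosome 8 under anti-PD-1. Among genes over 7, chromosomes 15 and 6 had the same median of -0.23 under IgG, and under anti-PD-1 they had -0.11 each. The share of genes with all resistant below all parental arrays was 16.0% on chromosome 15 and 1.47% to 13.7% on the others, the highest again on chromosome 6. A lower median was thus shared with chromosome 6, and no test of a difference between these chromosomes was made.

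**Figure D2:**
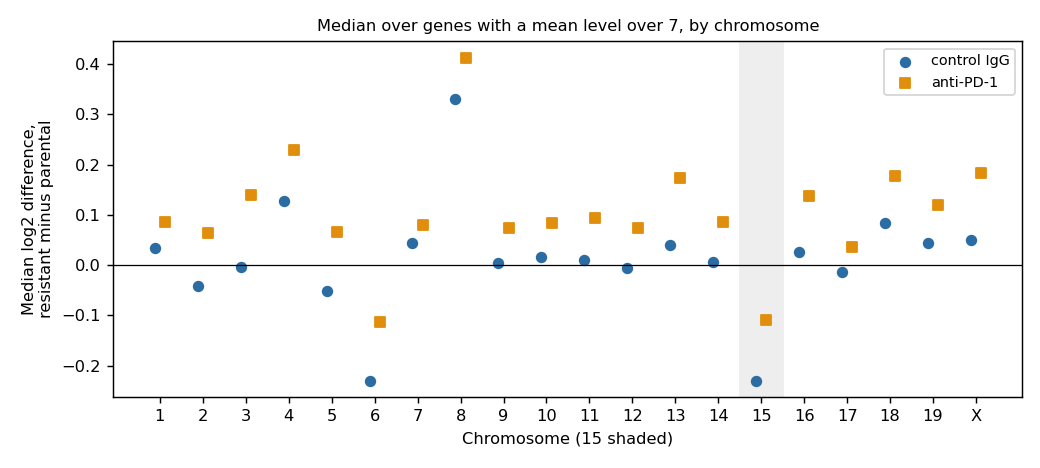
Median log2 difference, resistant minus parental (y axis), over genes with a mean level over 7 on each chromosome (x axis, chromosome 15 shaded), under IgG (circles) and anti-PD-1 (squares). Chromosomes 15 and 6 lie lowest with -0.23 under IgG, and chromosome 8 highest with 0.33.

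Along the chromosome the members were placed in 11 windows of 10 Mb by gene start, from Selenop at the beginning to Glycam1 at the end. Among members over 7, the median was below 0 in all 11 windows under IgG and in 8 of 11 under anti-PD-1. With members of every level these counts were 9 and 7. The exceptions under anti-PD-1 were windows 4 to 6, which begin at Dap, the gene of a death-associated protein, and end at Trib1, a pseudokinase gene just before Myc. There the members over 7 had medians of 0.10, 0.27 and 0.073 under anti-PD-1 and -0.10, -0.063 and -0.12 under IgG.

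Taken as 3 segments, a grouping made after the values were seen, the first (windows 1 to 3, Selenop to Trio) held 33 members over 7 with medians of -0.28 under IgG and -0.14 under anti-PD-1. The middle segment (windows 4 to 6) held 49, with -0.12 and 0.10, and 33 of them were below 0 under IgG but 17 under anti-PD-1. In the last segment (windows 7 to 11, with Myc, the Ly6 cluster, the keratins and Hoxc) 167 members had medians of -0.27 and -0.19, with 133 and 113 below 0. Leaving out 1 array at a time, the middle segment under anti-PD-1 stayed between 0.097 and 0.14, the first between -0.21 and -0.11 and the last between -0.24 and -0.11. Without both arrays that stand apart, the medians under anti-PD-1 were 0.097 in the middle, -0.20 in the first and -0.24 in the last segment. Under IgG all 3 segments thus had medians below 0, and under anti-PD-1 both outer segments did while the middle one did not. All genes over 7 had medians of 0.013 under IgG and 0.10 under anti-PD-1. The middle segment was thus about at the level of all genes under anti-PD-1, not above it.

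**Figure D3:**
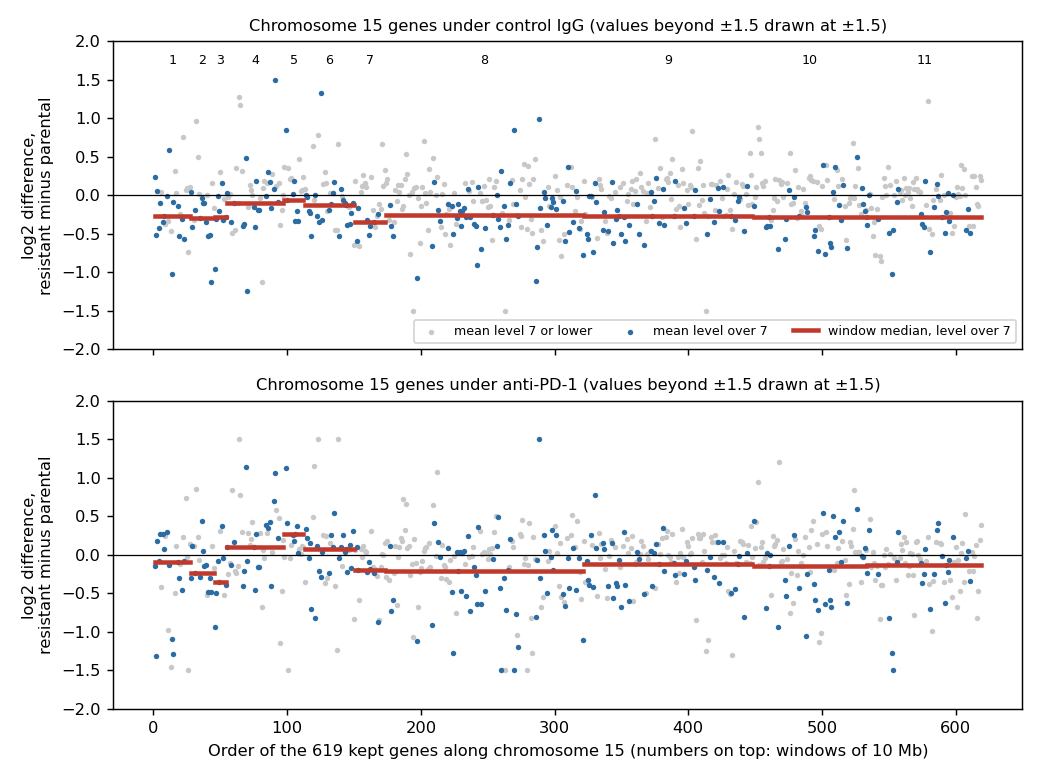
Log2 difference, resistant minus parental (y axis, values beyond 1.5 drawn at 1.5), for the 619 genes in their order on chromosome 15 (x axis), under IgG (top) and anti-PD-1 (bottom). Blue points are genes with a mean level over 7, grey points all others, and red lines the medians of the blue points in each 10 Mb window; the red lines lie below 0 in all 11 windows under IgG and above 0 in windows 4 to 6 under anti-PD-1.

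Further probe sets of the same genes were also read. Of the members, 335 had several probe sets, with 633 further ones, which the choice of members did not use but which come from the same arrays. Of all 633, 345 were below 0 under IgG (median -0.023) and 330 under anti-PD-1 (median -0.017). Among the 123 with a level over 7, 101 were below 0 under IgG (median -0.22) and 74 under anti-PD-1 (median -0.09). Of 73 members called lower under IgG that had several probe sets, 24 had at least 1 pointing the other way. Single genes thus did not always have the same sign on all their probe sets.

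The lowest genes came from several places along the chromosome. Apol7a, a member of the apolipoprotein L family, lay at 6.05, 6.91 and 6.88 in parental tumours under IgG and at 7.07, 7.49 and 6.78 under anti-PD-1. In resistant tumours it lay at 4.05, 4.19 and 3.95 under IgG and at 4.03, 4.00 and 4.60 under anti-PD-1, so the lines were far apart on every array. The difference was -2.55 (SE 0.25) under IgG and -2.90 (SE 0.25) under anti-PD-1, a level 5.86-fold and 7.48-fold lower. Its promoter, printed above, held neither motif.

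Rictor, the subunit that defines the second mTOR complex, had tight values near the beginning of the chromosome. Parental tumours lay at 8.87, 8.91 and 8.97 under IgG and at 9.06, 8.91 and 9.17 under anti-PD-1, and resistant tumours at 7.91, 7.77 and 8.01 and at 8.04, 7.94 and 7.88. No resistant array came within the parental range, and the level was 2.03-fold lower under IgG and 2.13-fold lower under anti-PD-1. All 5 of its probe sets pointed the same way. Basp1, a membrane-attached protein that also acts as a transcriptional corepressor, was similarly even: 11.92 to 12.14 on the 6 parental arrays and 11.02 to 11.18 on the 6 resistant ones, 1.94-fold and 1.92-fold lower.

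The Ly6 cluster supplied a further pair. Ly6e, whose product is a widely expressed membrane-anchored protein, lay at 10.69, 10.91 and 11.11 in parental tumours under IgG and at 10.74, 11.33 and 11.09 under anti-PD-1, against 9.77, 9.57 and 10.15 and 9.87, 9.74 and 10.18 in resistant tumours. The lines did not overlap, and the level was 2.10-fold and 2.18-fold lower. Ly6k lay at 8.46, 7.41 and 7.77 in parental tumours under IgG and at 6.71, 6.82 and 6.31 under anti-PD-1. Its resistant values were 5.89, 5.36 and 5.60 under IgG and 5.66, 5.11 and 5.88 under anti-PD-1, below every parental array, 4.80-fold and 2.09-fold lower, although the other of its 2 probe sets pointed the other way in both comparisons.

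Genes of cell contact and signalling filled the rest of the list. Celsr1, an atypical cadherin of planar cell polarity, ran from 5.67 to 6.90 on parental and from 4.78 to 5.23 on resistant arrays (2.96-fold and 2.38-fold lower). Card10, a scaffold on the way from membrane receptors to NF-kB, ran from 8.53 to 9.30 and from 7.64 to 8.13 (2.16-fold and 1.75-fold lower). Pdgfb, a ligand of platelet-derived growth factor receptors, ran from 7.45 to 8.19 and from 6.83 to 7.17 (1.72-fold and 2.16-fold lower). Grasp, a scaffold protein for receptors of the neuronal synapse, ran from 9.37 to 9.91 and from 8.26 to 8.73 (2.04-fold and 2.42-fold lower). In each of these 4 genes the lines were separate on all 12 arrays.

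Of the 6 genes named as highest in resistant tumours, 5 lay in windows 4 to 6, where none of the 10 lowest lay. These windows hold 96 of the 619 members. Of the 99 genes with all resistant arrays lower, 13 lay there, as did 7 of the 23 with all resistant arrays higher. Sdc2, a heparan sulfate proteoglycan of the cell surface in window 4, lay at 6.02, 5.84 and 5.83 and at 5.84, 5.73 and 5.93 in parental tumours under IgG and anti-PD-1. Its resistant values were 7.18, 7.25 and 7.09 and 7.49, 7.33 and 7.19, well above, for a level 2.42-fold and 2.83-fold higher, and its 4 probe sets had the same sign. Zfpm2, a cofactor of GATA transcription factors in window 5, ran from 7.55 to 8.10 on parental and from 8.65 to 9.04 on resistant arrays (1.80-fold and 2.19-fold higher). Cpq, a carboxypeptidase in window 4, ran from 5.25 to 6.66 and from 6.69 to 7.39 (2.25-fold and 1.71-fold higher), while 1 of its 3 probe sets had the opposite sign under IgG.

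The other 3 of these genes had wide parental values. Lgals2, a galectin that binds sugars at the cell surface, lay at 9.32, 9.95 and 10.30 and at 9.41, 9.70 and 8.24 in parental tumours, and at 10.64, 11.14 and 10.75 and at 11.10, 11.27 and 11.51 in resistant tumours. Anxa13, an annexin of epithelial cells, was as low as 3.84 on parental anti-PD-1 replicate 3, 1 of the arrays that stand apart, where the other parental arrays lay between 5.69 and 6.89 and the resistant arrays between 6.93 and 7.97. Dscc1, a part of a clamp loader used in sister chromatid cohesion, was lowest on the same array with 3.35, with 4.40 to 5.79 on the other parental and 5.80 to 6.31 on the resistant arrays. Under anti-PD-1 the difference was 2.13 for Anxa13 and 1.74 for Dscc1, and without that array it was 1.32 and 1.24. For Lgals2 it was 2.18 with the array and 1.74 without it. The other of the 2 Dscc1 probe sets pointed the other way in both comparisons of the lines.

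**Figure D4:**
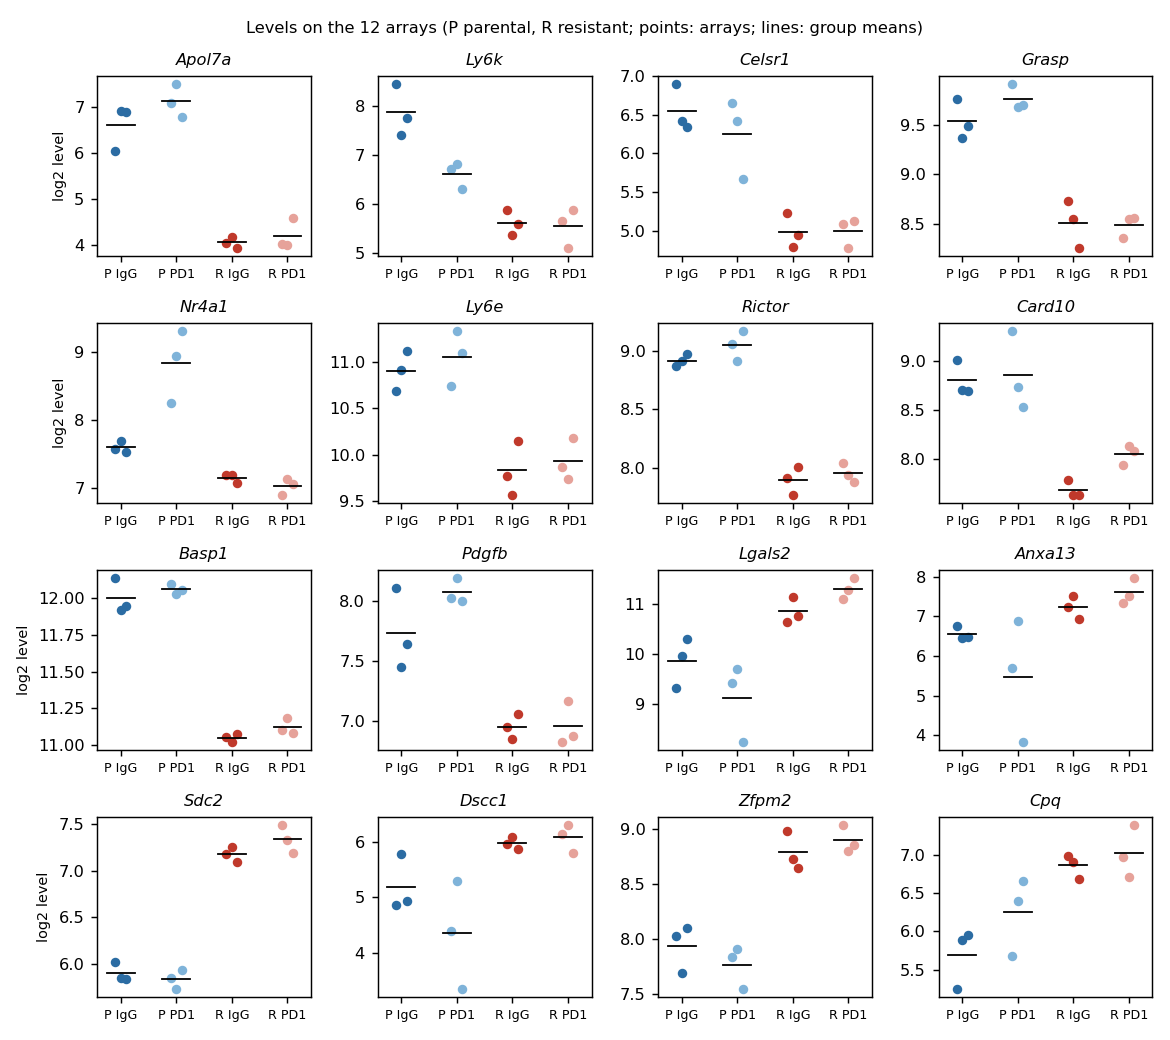
Log2 levels (y axis) of the 10 lowest and 6 highest chromosome 15 genes with separate lines, on the 12 arrays by group (x axis; P parental, R resistant). Points are arrays and lines group means; in every panel the 6 resistant arrays lie on one side of the 6 parental arrays.

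Nr4a1, an orphan nuclear receptor induced early after stimulation, parted from the other low genes by its small difference under IgG. Its parental level was 7.58, 7.70 and 7.54 under IgG and 8.25, 8.93 and 9.30 under anti-PD-1, while resistant tumours lay at 7.20, 7.20 and 7.08 and at 6.91, 7.14 and 7.06. The lines lay close under IgG, at 1.36-fold lower in resistant tumours, and far apart under anti-PD-1, at 3.46-fold lower. In parental tumours Nr4a1 rose with the antibody by 1.22, described further below, while Ly6k, also among the low genes, fell there by 1.27.

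Lists of chromosome 15 genes by role, chosen with earlier results of these data known, are described by their counts and medians. For the 16 cytokine, hormone and nuclear receptor genes the median difference between the lines was -0.24 under IgG and -0.90 under anti-PD-1, and 11 and 13 of them were below 0. Osmr, the receptor of oncostatin M, lay at 7.03, 7.59 and 7.74 and at 8.09, 7.85 and 9.01 in parental tumours, and at 7.34, 7.11 and 7.65 and at 7.21, 6.96 and 6.90 in resistant tumours, so the lines overlapped under IgG and were separate under anti-PD-1. Csf2rb, the shared receptor subunit of several myeloid cytokines, had differences of -0.27 and -1.19, and Acvr1b, an activin receptor, of -0.49 and -0.82. In each comparison, 1 of the 2 Acvr1b probe sets and 1 of the 3 Osmr probe sets had the sign opposite to the one used. Ghr, the growth hormone receptor, had -0.52 and -1.32, with 1 resistant IgG array at 8.67 among values of 6.68 to 7.19 in the rest of that line.

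The 19 leukocyte genes of the chromosome had medians of -0.27 under IgG and -0.77 under anti-PD-1, and 16 were below 0 in each comparison. Il2rb, a receptor subunit for interleukins of T and NK cells, lay at 3.89, 4.96 and 5.12 and at 5.00, 6.20 and 6.05 in parental tumours and at 4.33, 4.10 and 4.24 and at 4.00, 3.86 and 4.86 in resistant tumours. Under anti-PD-1 every parental array was above every resistant one, and under IgG they overlapped. Ncf4, a part of the phagocyte oxidase, had differences of -0.11 and -0.77, and Nckap1l, an actin regulator of blood cells, -0.11 and -0.82. Apobec3, a restriction factor against retroviruses, had -0.44 and -0.23, the larger one under IgG. The T-cell marker means given above, 4.90 to 5.81 in parental and 4.56 to 4.83 in resistant tumours under anti-PD-1, moved with this list. Macrophage marker means under anti-PD-1 were 8.47 ± 0.54 in parental against 8.13 ± 0.12 in resistant tumours (SD, n = 3). Under IgG they went the other way, with 8.08 in parental against 8.42 in resistant tumours. Neutrophil marker means were 7.21 against 8.99 under IgG, also the other way, and 7.72 against 7.47 under anti-PD-1. The part of these cell types in the result was not tested.

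Among the muscle genes, Pvalb and Mb varied widely, as did the muscle markers. Pvalb, a calcium buffer of fast muscle fibres, lay at 5.39, 11.54 and 10.23 in parental tumours under IgG and at 5.50, 8.85 and 8.61 in resistant tumours under anti-PD-1. Mb, the gene of myoglobin, lay at 5.76, 9.19 and 7.18 and at 6.15, 6.86 and 7.71 in those groups. The spread within a group was thus of the size of the differences between groups, which for Mb were 0.31 (SE 0.86) under IgG and -1.91 (SE 0.86) under anti-PD-1. Muscle marker means ranged alike, from 7.19 to 11.7 and from 6.61 to 10.2 in those groups, and their part was not tested. The ubiquitin ligase gene Fbxo32 had -0.46 and -1.23, and Asb8 -0.22 and -0.25, with no overlap of the lines for either.

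In the region around Myc, 42 genes had medians of -0.20 and -0.12, with 32 below 0 under IgG and 24 under anti-PD-1. Myc itself was at 9.81, 9.50 and 9.60 and at 9.77, 9.69 and 9.34 in parental tumours, against 9.48, 9.34 and 9.61 and 9.47, 9.33 and 9.41 in resistant tumours. The lines overlapped, with differences of -0.16 (SE 0.12) and -0.20 (SE 0.12). Ext1, an enzyme of heparan sulfate synthesis before Myc, was separate on all arrays with -0.53 and -0.70. Eif3h, a translation initiation factor subunit, stood at 0.00 and 0.33, Rad21, a cohesin subunit, at -0.20 and -0.037, Ndufb9, a subunit of respiratory complex I, at -0.12 and 0.073, and Ndrg1, a stress-responsive gene beyond Myc, at -0.25 and -0.88.

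The Ly6 genes and the keratins, families that form clusters, had medians below those of all genes, which were 0.067 under IgG and 0.073 under anti-PD-1. The 11 Ly6 family genes had medians of 0.003 and -0.073, so the low values of Ly6e and Ly6k were not those of the family. Several of the 11 were dim, such as Ly6h and Ly6m with mean levels of 3.77. Psca, a Ly6 family surface antigen, had -0.14 and 0.73, and Gpihbp1, which carries lipoprotein lipase in capillaries, 0.71 and 0.05. The 20 keratins had medians of 0.053 and -0.05. Krt8 and Krt18, the keratin pair of simple epithelia and of the tumour cells, were at 13.06 to 13.52 and 13.08 to 13.33 on parental and at 13.13 to 13.26 and 12.79 to 12.92 on resistant arrays. Only Krt18 of these was separate, with -0.38 and -0.36, whereas Krt7 had -0.093 and -0.087 and the hair keratin gene Krt81 0.04 and -0.043. The epithelial marker means, 8.71 to 10.3 in parental and 9.05 to 9.36 in resistant tumours, overlapped between the lines.

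The 7 Hoxc genes, patterning genes of the body axis, had medians of 0.09 and -0.06. Hoxc9 lay at 5.21 to 5.72 over the 12 arrays, with differences of 0.02 and -0.06. Hoxc6 had 0.40 and 0.027, Hoxc10 0.11 and -0.68 and Hoxc5 0.09 and 0.15. Of the tubulins only Tuba1a was kept, with 0.37 and 0.23 on a level of 11.36 to 11.92.

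Among genes of general cell functions, the 13 translation genes had medians of -0.04 and 0.12. Pabpc1, the poly(A) binding protein, had -0.19 and -0.15 with no overlap of the lines, the ribosomal protein gene Rpl8 0.00 and 0.12, and Eif3e 0.013 and 0.26. The 16 genes of mitosis and replication had medians of 0.14 and 0.20, with Cbx5, a heterochromatin protein, at -0.45 and -0.04, Atad2 at 0.17 and 0.54 and Rangap1, a regulator of nuclear transport, at 0.17 and 0.16. Lipid and mitochondrial genes, 19 in all, had -0.12 and 0.13. Among them Cox6c, a subunit of the terminal respiratory oxidase, had -0.15 and 0.10, the outer mitochondrial membrane protein gene Tspo 0.083 and 0.35, and Cyb5r3 -0.08 and 0.023. Srebf2, the transcription factor of cholesterol synthesis, had -0.38 and -0.60, with 8.32 to 9.07 on parental and 8.05 to 8.38 on resistant arrays. Atf4, the transcription factor of the integrated stress response, had -0.0033 and -0.40.

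The 20 genes of matrix and adhesion had medians of 0.12 and -0.028, and the bright ones parted. Myh9, the heavy chain of non-muscle myosin, lay at 11.47 to 11.87 on parental and at 10.82 to 11.26 on resistant arrays, with differences of -0.56 and -0.71 and all 5 probe sets the same way. Lgals1, a galectin of tumour cells and stroma, had 0.04 and 0.26 on a level of 12.89 to 13.36. Dab2, an endocytic adaptor, had 0.59 and -0.13, and the first gene of the chromosome, Selenop, a selenium carrier of plasma, 0.24 and -0.14. At the other end Glycam1, near the lower limit of the values, had 0.19 and 0.39.

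The comparison of anti-PD-1 with IgG within a line was not used to choose the chromosome and could be tested. It asks which genes followed the antibody in tumours of each line. In parental tumours 24 members changed (limma, adjusted p under 0.05 over 15493 genes): 9 rose (1.45%, background 1.23%) and 15 fell (2.42%, background 2.27%), 3.88% in all against a background of 3.5%. The median over the members was -0.013 against -0.0067 over all genes. Chromosome 15 thus had about the share of changed genes of the whole array. All 24 had no overlap between their parental groups, which calling them on these same arrays favours, so this adds nothing to the calls. Of the 24, 14 had a mean level over 7, and changes ran from 0.34 to 1.27 in size. With each array centred on its median, 5 rose (0.808%, background 1.17%) and 22 fell (3.55%, background 3.21%), so the shift towards falls was also that of all genes.

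Nr4a1 rose from 7.58, 7.70 and 7.54 under IgG to 8.25, 8.93 and 9.30 under anti-PD-1, by 1.22 (SE 0.20, adjusted p = 0.022). Resistant tumours showed -0.12 (SE 0.20), and no resistant array under anti-PD-1 exceeded 7.14. Ddx23, a helicase of the spliceosome, had the smallest adjusted p of the members. It rose from 5.16, 5.17 and 5.22 to 5.89, 5.74 and 5.82, by 0.63 (SE 0.082, adjusted p = 0.0122), and stood at 4.63 to 4.87 in all resistant tumours. Grina, a membrane protein of the family of anti-apoptotic Lifeguard proteins, rose from 9.16, 9.14 and 9.30 to 9.67, 9.93 and 10.23, by 0.74 (SE 0.13, adjusted p = 0.024). Krt80 rose from 5.82, 5.85 and 5.81 to 6.17, 6.23 and 6.54, by 0.49 (SE 0.099, adjusted p = 0.034). For all 4 risers the resistant difference was between -0.12 and -0.03.

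Among the genes that fell, Sub1, a transcriptional coactivator that binds single-stranded DNA, went from 9.76, 9.95 and 9.91 to 9.30, 9.45 and 9.37 (-0.50, SE 0.078, adjusted p = 0.0209). Resistant tumours stayed between 9.76 and 9.90. Cmbl, a hydrolase gene, went from 7.05, 7.23 and 7.42 to 6.36, 6.15 and 5.94 (-1.08, SE 0.19, adjusted p = 0.0234). Its resistant values were 6.92, 6.97 and 6.35 under IgG and 6.96, 6.75 and 7.26 under anti-PD-1, overlapping. Tomm22, a receptor of the mitochondrial import machinery, went from 9.95, 10.01 and 10.08 to 9.64, 9.66 and 9.36 (-0.46, SE 0.094, adjusted p = 0.034), and the predicted gene Gm17546 from 6.59, 6.53 and 6.75 to 6.04, 5.97 and 5.50 (-0.79, SE 0.15, adjusted p = 0.0287).

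Lower down, Ly6k fell by 1.27 (SE 0.27, adjusted p = 0.0363). Without both arrays that stand apart its difference was -0.82 (adjusted p = 0.138). Pycrl, an enzyme of proline synthesis, fell by 0.64 (SE 0.13, adjusted p = 0.034), and Cerk, ceramide kinase, rose by 0.46 (SE 0.11, adjusted p = 0.0477). Rida, an enzyme that clears reactive enamines, fell by 0.98 (SE 0.23, adjusted p = 0.0452), and Dennd6b rose by 0.76 (SE 0.16, adjusted p = 0.0358) with 1 further probe set the other way. Rida and Dennd6b were chosen after their values were seen.

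These calls depended on single arrays. The shares of all genes called in these fits are not given, so the counts are not read as a trait of chromosome 15. None of the 24 (0) was called in all 12 fits that leave out 1 array, and the calls of Ddx23, Sub1 and Nr4a1 lasted longest, in 10 of 12. No member (0) was called without parental IgG replicate 2 or without parental IgG replicate 3, 5 were called without parental IgG replicate 1, 3 when parental anti-PD-1 replicate 3 was left out, and 34 when parental anti-PD-1 replicate 1 was. Leaving out an array of the resistant line, which changes only the shared spread, gave 6 without resistant IgG replicate 1 or resistant anti-PD-1 replicate 1, 8 and 9 without resistant anti-PD-1 replicates 3 and 2, 15 without resistant IgG replicate 2 and 21 without resistant IgG replicate 3. Without both arrays that stand apart 4 were called, Ddx23, Sub1, Ndufa6 and Rida, and all 24 kept their sign. At an unadjusted p under 0.05, 135 members (21.8%, background 21.9%) differed, 60 higher (9.69%, background 9.66%) and 75 lower (12.1%, background 12.3%).

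**Figure D5:**
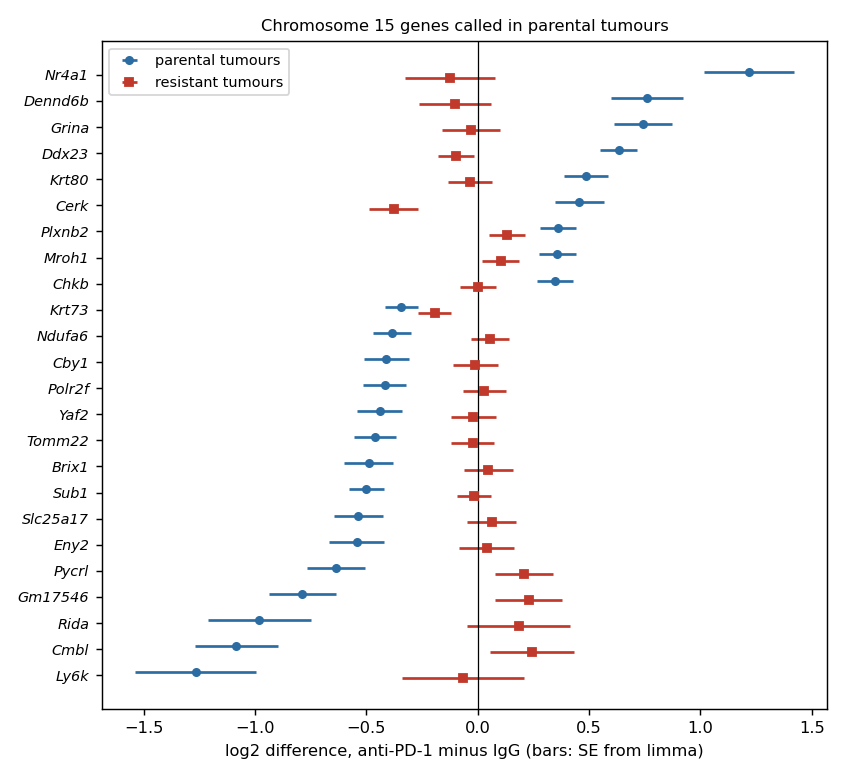
Log2 difference, anti-PD-1 minus IgG (x axis), in parental (circles) and resistant tumours (squares) for the 24 chromosome 15 genes called in parental tumours (y axis). Bars are standard errors from limma. In every gene the parental difference, by which the genes were chosen, is larger in size than the resistant one.

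By role, the receptors and leukocyte genes leaned upwards in parental tumours under anti-PD-1, although of both lists together only Nr4a1 passed the test. The 16 receptors had a median of 0.36 with 2 below 0, and the 19 leukocyte genes a median of 0.55 with 5 below 0, against -0.0067 over all genes. Osmr had 0.86 (adjusted p = 0.108) and Il2rb 1.09 (adjusted p = 0.133). The 4 muscle genes had a median of 0.87 and none called (0). The list means of T-cell markers were 4.66 to 5.55 under IgG and 4.90 to 5.81 under anti-PD-1 in parental tumours, with muscle markers at 7.19 to 11.7 and 10.2 to 12.2, and their part was not tested.

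Lists of metabolism and translation leaned the other way. The 13 translation genes had a median of -0.25 with 11 below 0 and none called (0), and Eif3e stood nearest with -0.25 (adjusted p = 0.0909). Of the 19 lipid and mitochondrial genes, median -0.22, 15 were below 0 and 2 were called lower, Pycrl and Ndufa6, a complex I subunit. Keratins were near 0 with a median of 0.023, Krt80 higher and Krt73 lower, and the Ly6 family had a median of 0.04 with Ly6k as its call. The lists of Hoxc genes, tubulins, mitosis and replication, and matrix and adhesion had no call either (0). In the Myc region, with a median of -0.098, no gene (0 of 42) was called, and Myc had -0.037 (adjusted p = 0.899).

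The middle segment of the chromosome leaned down in parental tumours under anti-PD-1. In windows 4 to 6, 39 of the 49 members over 7 were below 0 with a median of -0.17, against 104 of 200 in the other windows with a median of -0.01. The lean was not confined to the middle, since windows 1 and 2 had medians of -0.13 each, below window 4 with -0.087. On parental anti-PD-1 replicate 3, which stands apart, the median deviation of all genes over 7 was also low, at -0.135. No median of all genes over 7 for this comparison is given here. The parental anti-PD-1 arrays enter both the comparison of antibodies in parental tumours and that of the lines under anti-PD-1, so the 2 sets of values are not independent. In resistant tumours the medians were 0.043 in windows 4 to 6 and 0.053 elsewhere.

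In resistant tumours no member was called for anti-PD-1 (0 of 619, background 0), and at an unadjusted p under 0.05 there were 24 (3.88%, background 4.76%), 10 higher (background 2.45%) and 14 lower (background 2.32%). The median over the members was 0.02 against 0.03. The smallest p-values belonged to Ankrd54 (0.23), Letmd1 (0.29) and Ccdc65 (0.27) among higher genes and to Snhg18 (-0.51), Cerk (-0.38) and 4930588J15Rik (-0.31) among lower ones, each with an adjusted p of 0.896. Cerk lay at 6.47, 6.19 and 6.29 under IgG and at 5.94, 5.96 and 5.92 under anti-PD-1 in resistant tumours, with no overlap.

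The interaction asks whether the response to the antibody differed between the lines. No member passed (limma, 0 of 619, background 0), and at an unadjusted p under 0.05 there were 105 (17.0%, background 17.5%), 66 above 0 (background 10.8%) and 39 below (background 6.75%). With array weights 8 members passed (1.29%, background 0.781% of all genes in that fit). The smallest adjusted p-values were 0.101 for Ddx23 (-0.73, SE 0.12), 0.116 for Cmbl (1.33, SE 0.27) and Cerk (-0.83, SE 0.16), 0.119 for Gm17546 (1.02, SE 0.21), 0.124 for Nr4a1 (-1.34, SE 0.29) and 0.132 for Pycrl (0.84, SE 0.19). All 24 genes called in parental tumours had smaller differences in resistant tumours, which choosing them by their parental difference favours. The test of the interaction did not pass for any of them. No list had a call in resistant tumours or in the interaction.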

How the data were processed

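Total RNA from whole tumours was labelled with biotin and hybridised, per the labels' protocols. The authors deposited a table of log2 levels for each array, from 1.62 to 13.88. The scale and a normalisation between arrays were read from the values (array medians of 4.75 to 4.89), while the methods of background correction, normalisation and summarisation were not given in the sources used here. Of 45101 probe sets, 34945 carried 1 gene, and 34741 of these were matched by gene number to a RefSeq gene table (GRCm38.p6), the source of chromosome and gene order.

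Differences were fitted in R 4.3.3 by limma 3.58.1 with a mean for each group, two-sided, Benjamini-Hochberg over 15493 genes, checked on simulated data. The number of arrays limits the precision, with a median standard error of 0.117 for a difference and 0.166 for the interaction. Members and the 12 lists were chosen with earlier results of these data known. Named by rule were the 10 lowest and 6 highest genes with the same sign under both antibodies and separate lines (no predicted genes), the smallest p-values of each antibody contrast (at most 8 called genes, or 3 in each direction), the 4 highest means of each list, Myc, Atf4, Srebf2, Krt8, Krt18, Osmr, Il2rb and Mb, and both ends of the chromosome. Other names, the limit of 7 and the 3 segments were chosen with their values in view. Alternatives were other filters (none, 50th percentile), the median of probe sets, centred arrays, a replicate block, array weights, a variance trend, windows of 5 and 20 Mb and leaving out arrays. Python 3.11.15 and matplotlib 3.10.9 drew the figures.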

Additional observations from a re-analysis of the deposited data

Results flagged for a closer look

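Cerk, the gene of ceramide kinase, had differences of opposite sign in the lines under anti-PD-1. Parental tumours lay at 6.55, 6.45 and 6.75 under IgG and at 6.93, 6.96 and 7.23 under anti-PD-1, a rise of 0.46 (SE 0.11), and resistant tumours at 6.47, 6.19 and 6.29 and at 5.94, 5.96 and 5.92, a difference of -0.38 (SE 0.11). In each line the groups did not overlap. The difference between both responses was -0.83 (SE 0.16) with an adjusted p = 0.116 (limma interaction over 15493 genes), so it did not pass the threshold, and the parental call was kept in 1 of 12 fits that leave out an array.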

How the results depend on the processing

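The median over chromosome 15 genes kept its sign under every alternative run. Under IgG it was -0.02 with no filter, -0.143 with the stricter filter and -0.0933 with arrays centred, and under anti-PD-1 it was -0.0083, -0.0667 and -0.0733. Leaving out 1 array gave -0.0733 to -0.0533 and -0.0367 to -0.02. The share of windows with a median below that of all genes was 90.9% under IgG and 81.8% under anti-PD-1, and 90.9% to 100% and 72.7% to 90.9% with 1 array left out. Anti-PD-1 in parental tumours gave 24 called members, 0 to 34 with 1 array left out, 4 without both arrays that stand apart (an alternative chosen after seeing the data) and 41 with array weights (6.62%, against 5.93% of all genes), of which 23 were shared with the 24. In resistant tumours it stayed at 0 in all of these fits. The interaction gave 0 to 5 with 1 array left out and 8 with array weights (1.29%, against 0.781% of all genes). For the fits that leave arrays out, the shares of all genes called are not given. Their counts are therefore not read as a trait of chromosome 15. The cause of these shifts was not tested, beyond the fewer arrays in the fits that leave arrays out. With the replicate number as a block, 29 members were called in parental tumours, 20 of them among the 24, and 725 of all 15493 genes. The deviations of same-numbered arrays correlated over 0.1 in all 6 pairs of number 1 (0.113 to 0.636) and all 6 of number 3 (0.174 to 0.44), but in 2 of 6 pairs of number 2 (-0.208 to 0.181), and 10 of 12 arrays correlated best with their own number. This is a hint of shared numbering from the data, and since not every pair was over 0.1 and the labels name no shared batch, the fit without the block was kept. No value of a named gene changed sign where it was called.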
